A study of Ovis aries with 32 samples.

Results

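The genes described here carry, modulate or respond to signals of the TGF-beta, BMP and activin family. They were followed in fetal sheep preadipocytes and in the cells differentiated from them in culture. They were chosen by name from a list of 45 genes of this family. A gene was tested when the sum of its transcripts reached a value of 10 in at least 4 of the 32 libraries. Of the 45 names, 43 had a row in the deposited table, 42 passed this filter among 12737 genes that did, and each name stands for 1 gene. The BMP antagonist NOG did not pass, with 5.00 as its highest value in any library, and no row carried the names SMAD9 or FSTL3.

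RNA was sequenced from preadipocytes of perirenal fat taken from near-term singleton fetuses of Columbia-Rambouillet crossbred ewes. Growth restriction was produced by keeping the ewes at a raised ambient temperature from early to mid gestation, whereas control ewes were kept at a normal temperature. Each of 8 groups holds 4 libraries. The preadipocytes came from control males (MC), control females (FC), growth-restricted males (MFGR) or growth-restricted females (FFGR), and cells of each of these 4 origins differentiated in culture form MCD, FCD, MFGRD and FFGRD. All cells were grown outside the fetus, so the circulation and the neighbouring tissue of the animal were absent in every group. The sources used here do not say which libraries come from separate fetuses, and the p-values then measure the spread between these libraries. In such bulk samples fewer cells of a type and less RNA per cell cannot be told apart.

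TGF-beta is secreted in a latent complex, in which latent TGF-beta binding proteins tether it to fibrillin and other matrix fibres until it is released. Ligands of the family bind pairs of type I and type II receptor kinases. TGF-beta and activin receptors then phosphorylate SMAD2 and SMAD3, BMP receptors phosphorylate SMAD1, SMAD5 and SMAD9, and both sets enter the nucleus with SMAD4. Secreted antagonists such as gremlin and follistatin trap the ligands, and SMAD6, SMAD7 and BAMBI curb the signal inside or at the surface of the cell. In fat, TGF-beta and activin A are known to hold back adipocyte differentiation, and BMP4 is known to commit precursors to the adipocyte lineage.

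The deposited values of a library summed to between 9.52 and 21.2 M. They are reads after the authors' normalization and appear to carry a further scaling that differs between transcripts. The value of 1 read is therefore only approximate, taken from the most common low values of each library (0.71 to 1.83). Differences computed with values set at 3 reads are rough guides and not strict bounds. Values are compared here between libraries and not between genes, because the length of the transcript affects them. The labelled cell types were checked with 7 adipocyte marker genes, and 7 of 7 were higher in the differentiated cells, with log2 fold changes from 2.26 for PPARG to 9.55 for FABP4. The summed adipocyte markers nevertheless ran from 350 to 184854 among the differentiated libraries, against 64.9 to 1378 among the preadipocytes. The adipocyte marker ADIPOQ stood at only 8.59 in FCD replicate 4. That was below its values in the preadipocyte libraries FFGR replicate 2 (121) and FFGR replicate 3 (216). Of 6 preadipocyte or fibroblast markers, DLK1 was at or near 0 in both stages, with 2.34 as its highest value. The others had signal in both stages. Their medians in preadipocytes and differentiated cells were 10681 and 11532 for PDGFRA, 2330 and 1161 for PDGFRB, and 539 and 1218 for THY1. They were 26.7 and 14.5 for CD34 and 43590 and 18868 for DCN. Among markers of other cell types, PAX8 of the kidney tubule fell from a median of 39.7 to 4.84 (-3.01, adjusted p = 2.04e-06), with UMOD at 0 in every library. Of the immune markers CD14 rose (1.86, adjusted p = 0.000144) and CD68 fell (-0.81, adjusted p = 0.0424), and PTPRC had a median of 0 in both stages. None of the mesothelial or epithelial markers passed. Their sum had a median of 30.7 in preadipocytes, with 1877 in FC replicate 3 as the highest. In differentiated cells the median was 46.9 and the highest 130. The part of such cells in the results was not tested. In 9 libraries the values depended less on the genomic span of the gene than in the other 23. The slope of log2 value on log2 span was -0.086 to 0.074 in these 9 and 0.152 to 0.273 in the rest. The 9 libraries of low span slope were 4 of preadipocytes (FC 2, MFGR 1, FFGR 2 and FFGR 3) and 5 of differentiated cells (MCD 2, MCD 4, FCD 2, MFGRD 1 and FFGRD 3), where the number is that of the replicate. The mean slope was 0.173 in preadipocytes and 0.168 in differentiated cells. Results are given over all 32 libraries, and values within each of both sets of libraries stand beside the results they touch.

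The first comparison asked which genes of the family differ between preadipocytes and differentiated cells. Averaged over the 4 origins, 24 of the 42 genes passed the test, 14 lower and 10 higher in differentiated cells. The test was limma on log2(value + 1), with a gene called at a Benjamini-Hochberg adjusted p below 0.05 over all genes and a fold change above 1.5. These 57.1% compare with 27.2% of all genes tested, 12.4% higher and 14.8% lower. The median log2 fold change was -0.30 over the 42 genes and 0.03 over all genes. The genes that fell the most, each by more than 4-fold, included the latent TGF-beta binding proteins LTBP2, LTBP3 and LTBP4 and the matrix protein TGFBI. The others were the antagonists GREM1 and FST, the activin A subunit INHBA and the co-receptor ENG. The ID genes, BMP4, LTBP1 and the activin B subunit INHBB rose the most. The 18 genes that did not pass ranged from -1.08 for BMP7 to 0.79 for SKIL. A mean change of the same sign in each of the 4 origins was seen for 30 of the 42 members and 51.4% of all genes. All 24 genes called were among the 30. They were called on the mean of these same origins, so their shared sign is no separate support.

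**Figure D1:**
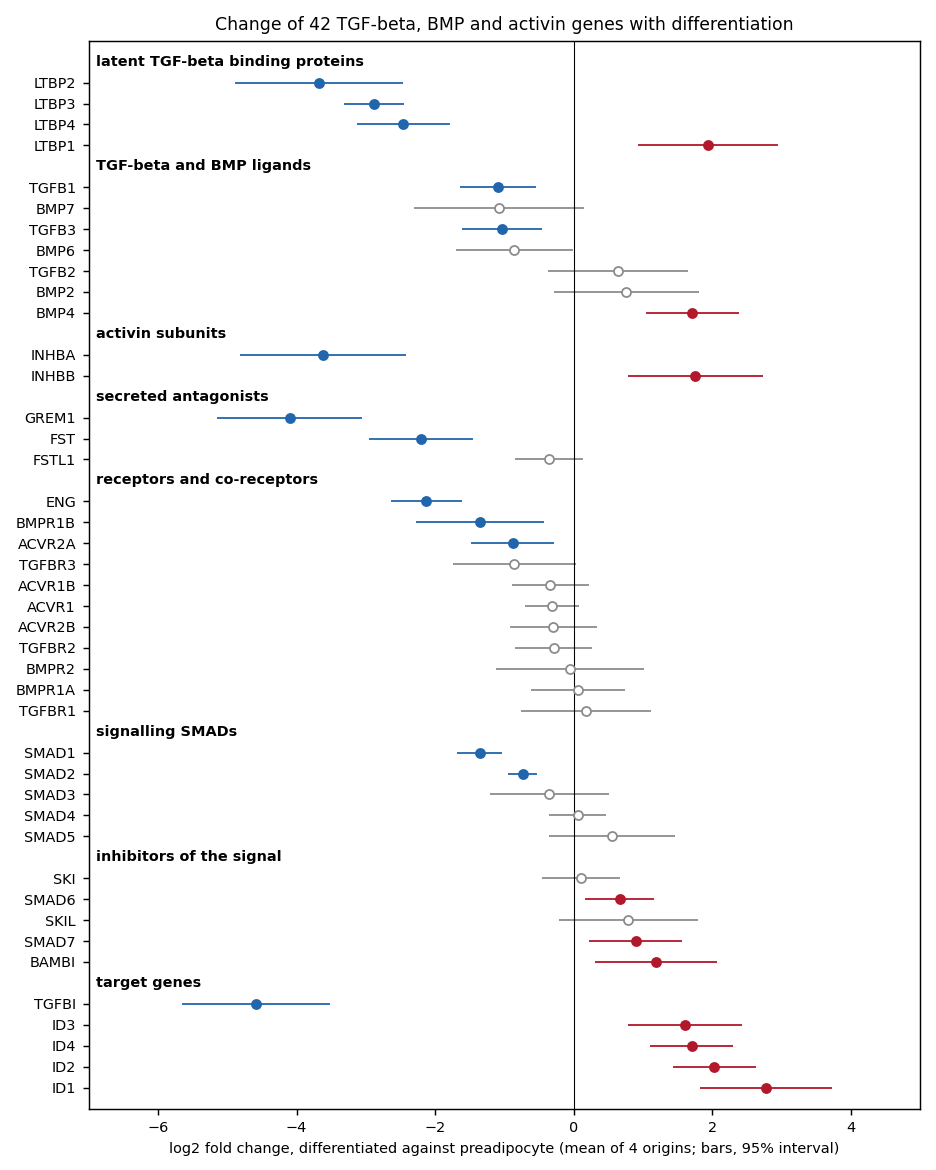
Log2 fold change of the 42 genes tested, differentiated against preadipocyte, as the mean of 4 origins with its 95% interval (horizontal bars), grouped by role. Filled points are the 24 genes called, 14 lower (blue) and 10 higher (red), and open grey points are the 18 that were not. LTBP2, LTBP3 and LTBP4 lie to the left and LTBP1 lies to the right.

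The 9 libraries of low span slope left most of this picture in place. Without them 23 members were called, 21 of the 24 among them, and 28.0% of all genes. Within those 9 alone, with stage as the only term, 15 were called, 13 of the 24 among them, and 22.1% of all genes. All 24 kept the sign of their change in both sets, which are parts of the 32 libraries that gave the calls and so no separate support. With the span slope as a covariate all 24 were called among 27 members, with 33.0% of all genes, and the 3 gained were SKIL (0.84), TGFBR3 (-0.82) and SMAD5 (0.60). SMAD6, SMAD7 and BAMBI were the 3 genes not called in the 23 libraries, where their log2 fold changes were 0.45, 0.57 and 0.74. In the 9 libraries these changes were 1.20 (called), 1.55 (not called, adjusted p = 0.0595) and 1.89 (called). TGFBR3 and BMP7 were called in addition in the 23 libraries, at -1.08 and -1.64, against -0.86 and -1.08 (not called) over all 32 libraries.

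**Figure D2:**
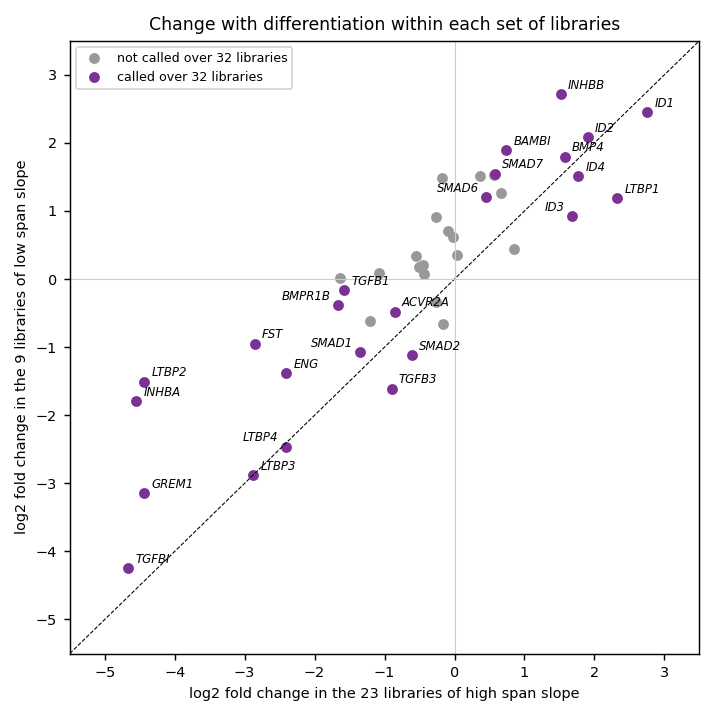
Log2 fold change with differentiation in the 23 libraries of high span slope (horizontal axis) and in the 9 of low span slope (vertical axis), for each of the 42 genes. Purple points are genes called over all 32 libraries and grey points are the others, and on the dashed line both sets give the same value. LTBP3 lies on the line at -2.88 in both sets, and INHBA, LTBP2 and FST lie above it, with smaller decreases in the 9 libraries.

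The latent TGF-beta binding proteins were split, with 3 lower and 1 higher. LTBP3 (ENSOARG00020018123, chr21:45510947-45529975 on Oar_rambouillet_v1.0), which binds latent TGF-beta, was the only member whose 16 preadipocyte and 16 differentiated libraries did not overlap, as was true of 1.09% of all genes, 0.652% lower and 0.44% higher. Its values in preadipocytes had a lowest of 890, a median of 1891 and a highest of 3400, and in differentiated cells 82.8, 289 and 481. The log2 fold change was -2.88 ± 0.21 (SE, adjusted p = 1.37e-10), the smallest p of the 42 genes. LTBP3 fell by 2.88 on the log2 scale in each set of libraries taken alone.

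LTBP2 (ENSOARG00020014686, chr7:89547159-89654613), a family member that sits on elastic fibres and is not known to bind latent TGF-beta, had values of 221, 2602 and 6383 (lowest, median and highest) in preadipocytes and 18.7, 153 and 1210 in differentiated cells. Its change was -3.68 ± 0.59 (adjusted p = 2.01e-05). All 16 differentiated libraries lay below the preadipocyte median, and 12 preadipocyte libraries lay above every differentiated one. LTBP2 changed by -4.43 in the 23 libraries of high span slope, and in the other 9 the change was -1.51 and not called (adjusted p = 0.337). LTBP4, which binds TGF-beta poorly and supports elastic fibre assembly, ran from 208 over a median of 702 to 1441 in preadipocytes and from 22.2 over 113 to 258 in differentiated cells. The LTBP4 change was -2.46 ± 0.33 (adjusted p = 1.38e-06), with 14 preadipocyte libraries above the highest differentiated value, and was -2.42 and -2.46 within both sets of libraries.

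LTBP1 (ENSOARG00020001760, chr3:96878752-97336347), the best known tether of latent TGF-beta1, moved in the opposite direction. LTBP1 values were 288, 972 and 2506 in preadipocytes and 209, 4149 and 10499 in differentiated cells. The log2 fold change was 1.94 ± 0.49 (adjusted p = 0.00311). In 10 of 16 differentiated libraries LTBP1 exceeded every preadipocyte library, and the 3 below the preadipocyte median, at 209 (FCD 2), 677 (MCD 4) and 853 (MFGRD 1), were all libraries of low span slope. The rise was 2.33 in the 23 libraries of high span slope, and the change was 1.19 and not called in the 9 others (adjusted p = 0.141).

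Among 7 ligands of the TGF-beta and BMP branches, 2 TGF-betas fell and BMP4 rose. TGFB1, the prototype of the family, ran from 99.5 over a median of 161 to 675 in preadipocytes and from 44.3 over 88.4 to 271 in differentiated cells. The TGFB1 change was -1.09 ± 0.27 (adjusted p = 0.00224), with 14 of 16 differentiated libraries below the preadipocyte median. It was -1.57 in the 23 libraries of high span slope and -0.16 (adjusted p = 0.838) in the 9 of low slope. TGFB3, a closely related ligand, had values of 239, 624 and 1609 in preadipocytes and 53.6, 315 and 965 in differentiated cells. TGFB3 fell by 1.04 on the log2 scale (SE 0.28, adjusted p = 0.00499), and the stages overlapped, with 3 preadipocyte libraries above the highest differentiated one. The change was -0.90 in the 23 libraries and -1.61 and not called in the 9 (adjusted p = 0.0728).

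BMP4 (ENSOARG00020014655, chr7:68683436-68686774) had values of 28.0, 73.3 and 204 in preadipocytes and 59.9, 246 and 942 in differentiated cells. In 11 differentiated libraries BMP4 exceeded every preadipocyte library, and in 15 it exceeded their median. The log2 fold change was 1.71 ± 0.33 (adjusted p = 0.000165), with 1.57 and 1.80 within both sets of libraries. TGFB2, BMP2, BMP6 and BMP7 did not pass, with changes of 0.64, 0.76, -0.86 and -1.08. BMP2 and BMP7, 2 further BMP ligands, had low values, with medians of 12.6 and 4.13 in preadipocytes. The median of BMP7 in differentiated cells was 0.

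The activin subunits moved in opposite directions. INHBA (ENSOARG00020000159, chr4:86901646-86917893) encodes the beta A subunit, whose dimer is activin A. INHBA values were 155, 427 and 5643 in preadipocytes and 10.8, 43.7 and 579 in differentiated cells, and 13 differentiated libraries lay below every preadipocyte library. The change was -3.62 ± 0.58 (adjusted p = 1.93e-05). It was -4.55 in the 23 libraries of high span slope, and -1.79 and not called in the other 9 (adjusted p = 0.196). INHBB (ENSOARG00020023725, chr2:199074666-199078371), the beta B subunit that forms activin B, had values of 2.81, 72.1 and 270 in preadipocytes and 14.4, 206 and 468 in differentiated cells. INHBB rose by 1.75 on the log2 scale (SE 0.48, adjusted p = 0.00504) and lay above the preadipocyte median in 15 of 16 differentiated libraries. Its rise was 1.52 in the 23 libraries and 2.72 in the 9.

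**Figure D3:**
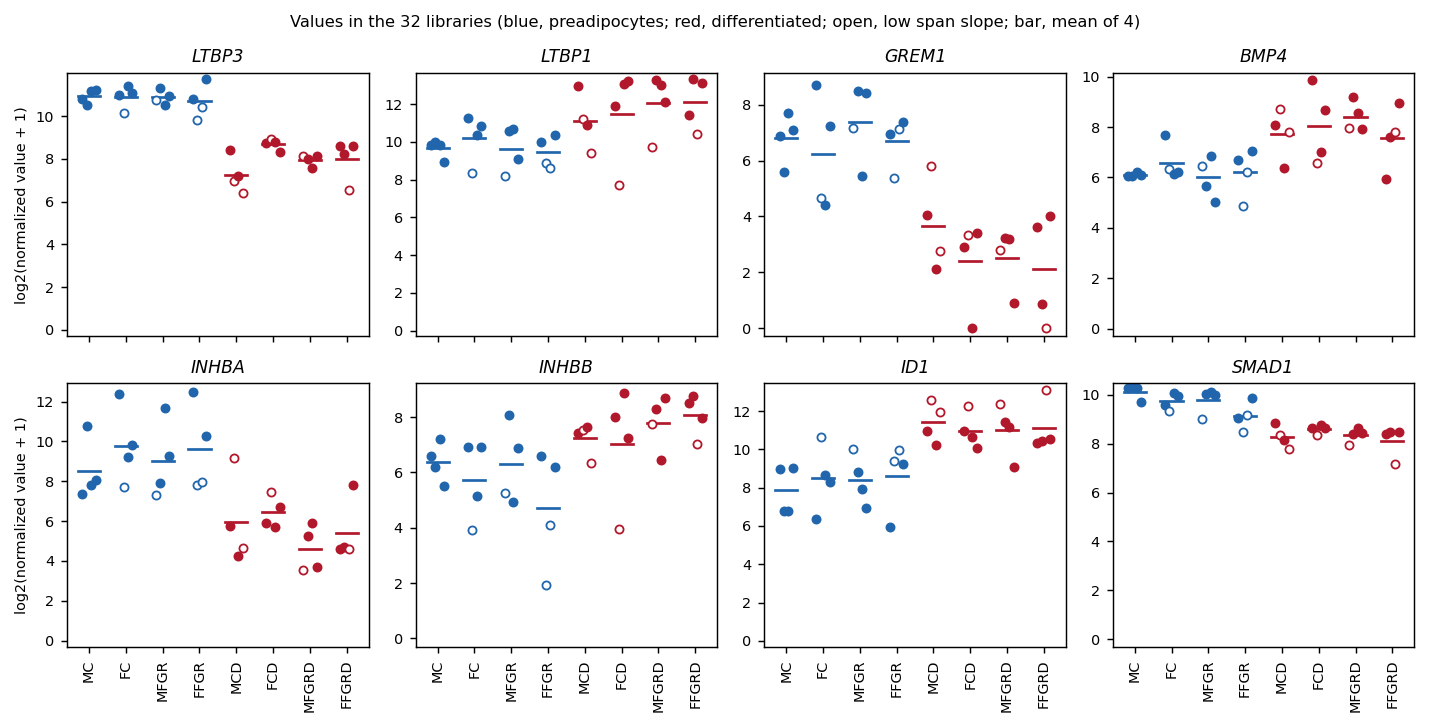
Values of 8 genes in each of the 32 libraries, as log2(normalized value + 1), with the 4 preadipocyte groups in blue, the 4 differentiated groups in red and a bar at the mean of 4 libraries. Open circles are the 9 libraries of low span slope. LTBP3, GREM1, INHBA and SMAD1 are lower and LTBP1, BMP4, INHBB and ID1 are higher in the differentiated groups, and LTBP3 separates the stages without overlap.

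Secreted antagonists fell in 2 of 3 cases. GREM1 (ENSOARG00020005702, chr7:29688880-29689431), gremlin, which traps BMP2, BMP4 and BMP7, had values of 20.03, 136 and 413 in preadipocytes and 0, 7.21 and 54.4 in differentiated cells. All but 1 of the differentiated libraries lay below every preadipocyte library, the exception being MCD replicate 2 at 54.4. The log2 fold change was -4.10 ± 0.51 (adjusted p = 5.25e-07), with -4.44 and -3.15 within both sets of libraries. FST, follistatin, which binds activin almost irreversibly, had values of 155, 300 and 1055 in preadipocytes and 24.4, 59.2 and 496 in differentiated cells. FST changed by -2.20 ± 0.37 (adjusted p = 3.00e-05), and 14 differentiated libraries lay below every preadipocyte library. It was -2.85 in the 23 libraries of high span slope, and -0.95 and not called in the other 9 (adjusted p = 0.358). MCD replicate 2 held the highest differentiated values of GREM1, FST and INHBA, at 54.4, 496 and 579, and ADIPOQ stood at 6933 in the same library. FSTL1, a follistatin-like secreted glycoprotein, did not pass (-0.35, adjusted p = 0.284).

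Of 11 receptors and co-receptors, 3 fell and none passed as higher over the 32 libraries, a share near the 27.2% of all genes called. ENG (ENSOARG00020015832, chr3:8624430-8654772), endoglin, a co-receptor for TGF-beta and BMP9 that is abundant on endothelium and mesenchymal cells, had values of 267, 601 and 965 in preadipocytes and 46.6, 124 and 423 in differentiated cells. The ENG change was -2.13 ± 0.25 (adjusted p = 2.00e-07), and 14 differentiated libraries lay below every preadipocyte library. It was -2.40 in the 23 libraries of high span slope, and -1.38 and not called in the 9 of low slope (adjusted p = 0.0961). The 6 endothelial markers were low throughout, their sum running from 10.1 to 92.7 in preadipocytes and from 5.84 to 287 in differentiated cells, with CDH5 at 2.31 or less and CLDN5 at 1.49 or less in every library. Of the 4 endothelial markers tested, KDR fell (-1.43, adjusted p = 0.0289) and PECAM1, VWF and TEK did not pass. The highest sum, 287, came from FCD replicate 2, where PECAM1 stood at 272. The part of endothelial cells in the change of ENG was not tested.

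BMPR1B, a type I BMP receptor, had values of 28.6, 228 and 510 in preadipocytes and 10.8, 79.3 and 174 in differentiated cells. BMPR1B fell by 1.35 on the log2 scale (SE 0.45, adjusted p = 0.0216), with all 16 differentiated libraries below the preadipocyte median. The change was -1.67 in the 23 libraries of high span slope and -0.39 (adjusted p = 0.703) in the other 9, and the call was lost with equal library totals (adjusted p = 0.0644). ACVR2A, a type II receptor for activins and BMPs, ran from 228 over a median of 931 to 1586 in preadipocytes and from 92.6 over 484 to 595 in differentiated cells. Its change was -0.88 ± 0.29 (adjusted p = 0.0199), and 11 preadipocyte libraries lay above the highest differentiated one. It was -0.48 and not called in the 9 libraries of low slope, and over all 32 the call was lost with equal library totals (adjusted p = 0.106). The 8 other receptors, TGFBR1, TGFBR2 and TGFBR3 for TGF-beta, ACVR1, ACVR1B and ACVR2B for activins and BMPs, and BMPR1A and BMPR2 for BMPs, ranged from -0.86 to 0.18. All of these 8 but ACVR1 were negative in the 23 libraries and positive in the 9. Their values over all 32 thus average estimates of opposite sign, several of them near 0 (0.07 for ACVR2B in the 9, -0.09 for BMPR1A in the 23). In the 9 libraries stage was the only term, and origin was not balanced between the stages. Over the 16 differentiated libraries Pearson's r of these 8 with the span slope ran from 0.12 (ACVR2B) to 0.97 (BMPR2). The part of the span slope in these signs was not tested. BMPR2 was at -0.26 and 0.91 and ACVR1 at -0.27 and -0.33, none of them called. TGFBR1 was at -0.17 (not called) in the 23 and at 1.49 (called, adjusted p = 0.0384) in the 9. TGFBR3 was at -1.08 (called) in the 23 and at 0.09 (not called) in the 9.

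The signalling SMADs gave 2 decreases. SMAD1 (ENSOARG00020024894, chr17:14002409-14107060), a BMP-regulated SMAD, had values of 358, 963 and 1264 in preadipocytes and 143, 340 and 457 in differentiated cells. In 15 preadipocyte libraries SMAD1 lay above every differentiated library. The log2 fold change was -1.36 ± 0.16 (adjusted p = 1.59e-07), with -1.35 and -1.08 within both sets of libraries. SMAD2 (ENSOARG00020010458, chr23:52905350-52990001), which relays TGF-beta and activin, had values of 710, 986 and 1595 in preadipocytes and 397, 593 and 772 in differentiated cells. SMAD2 changed by -0.74 ± 0.10 (adjusted p = 2.89e-06), and 14 preadipocyte libraries lay above every differentiated one. It was called in both sets of libraries, at -0.61 and -1.12. SMAD3, SMAD4 and SMAD5 did not pass, with changes of -0.35, 0.06 and 0.55. The interval of SMAD4, the partner of both branches, was -0.35 to 0.47.

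Inhibitors of the signal gave 3 increases, all close to the threshold. BAMBI, a decoy receptor that lacks a kinase domain, had values of 7.74, 35.8 and 244 in preadipocytes and 17.3, 84.1 and 330 in differentiated cells (1.18 ± 0.43, adjusted p = 0.0338). SMAD7, which recruits ubiquitin ligases to the TGF-beta receptors, had values of 29.4, 64.1 and 401 in preadipocytes and 54.2, 165 and 295 in differentiated cells (0.89 ± 0.33, adjusted p = 0.0378). SMAD6, which acts mainly against BMP signalling, had values of 33.2, 77.8 and 191 in preadipocytes and 53.6, 120 and 291 in differentiated cells (0.67 ± 0.24, adjusted p = 0.035). The stages overlapped widely, and 15, 14 and 14 differentiated libraries lay above the preadipocyte median of BAMBI, SMAD7 and SMAD6. Leaving out 1 library at a time lost the call of SMAD6 in 12 of 32 fits, of SMAD7 in 17 and of BAMBI in 13, with 0.0653, 0.0684 and 0.0632 as the highest adjusted p. The other 21 calls were kept without any single library. The nuclear corepressors SKI and SKIL, which bind SMAD complexes, did not pass, at 0.10 and 0.79. SKIL was nevertheless called in the 9 libraries of low span slope (1.53, adjusted p = 0.0163), with the span slope as a covariate (0.84, adjusted p = 0.000377) and with array weights (0.81, adjusted p = 0.0366). With array weights SMAD6 was not called (0.35, adjusted p = 0.247), whereas SMAD7 and BAMBI were.

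All 5 target genes of the family were called, the 4 ID genes higher and TGFBI lower. TGFBI (ENSOARG00020010032, chr5:49628226-49692974), a matrix protein induced by TGF-beta, had values of 6481, 16315 and 105211 in preadipocytes and 65.6, 864 and 7507 in differentiated cells. The log2 fold change was -4.59 ± 0.52 (adjusted p = 1.27e-07), the largest of the 42 genes, and 14 preadipocyte libraries lay above every differentiated library. It was -4.66 and -4.24 within both sets of libraries. SMAD5 lies nearby on the same chromosome, at chr5:49779440-49807137, and its change of 0.55 did not pass.

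The ID genes encode proteins that bind basic helix-loop-helix factors without binding DNA, and they are classical targets of BMP signalling. ID1 (ENSOARG00020004462, chr13:63520508-63521553) had values of 61.0, 429 and 1602 in preadipocytes and 547, 1998 and 8692 in differentiated cells, and its change was 2.77 ± 0.46 (adjusted p = 3.26e-05). ID2 (ENSOARG00020006940, chr3:18763018-18764977) had values of 55.0, 214 and 366 in preadipocytes and 298, 703 and 2860 in differentiated cells, and its change was 2.03 ± 0.29 (adjusted p = 4.07e-06). For ID2, 15 of 16 differentiated libraries exceeded every preadipocyte library, and for ID1 and ID4 all 16 exceeded the preadipocyte median.

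ID4 ran from 46.9 over a median of 226 to 507 in preadipocytes and from 237 over 679 to 1242 in differentiated cells (1.70 ± 0.29, adjusted p = 4.65e-05). ID3 had values of 94.2, 326 and 1917 in preadipocytes and 305, 945 and 4732 in differentiated cells (1.60 ± 0.40, adjusted p = 0.00272). The rises of ID1, ID2 and ID4 were called in both sets of libraries, with 2.76 and 2.45 for ID1, 1.91 and 2.08 for ID2 and 1.77 and 1.51 for ID4. ID3 rose by 1.67 in the 23 libraries, and its change was 0.92 and not called in the 9 (adjusted p = 0.0742). The 4 ID genes span few bases, and in the 16 differentiated libraries Pearson's r of their values with the span slope was -0.81 for ID1, -0.71 for ID2, -0.87 for ID3 and -0.26 for ID4 (a description over libraries that share this technical measure).

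Single transcripts showed which part of each gene sum moved. Of 63 transcripts of these genes that could be tested, 29 in 22 genes were called, 10 higher and 19 lower, against 19.8% of all 19469 transcripts tested. For LTBP1, transcripts 201, 203 and 204 rose (2.62, 2.44 and 1.85), and 202 did not pass (2.06, adjusted p = 0.0976). For LTBP4, transcripts 203 and 204 fell (-3.04 and -3.74), and transcript 201, with 15.6% of the gene's values, was at 0.66 and did not pass. Both transcripts of LTBP2, LTBP3, ENG and TGFBI fell, with changes from -5.20 for TGFBI transcript 201 to -2.31 for ENG transcript 201. FSTL1 as a gene did not pass, but its transcript 201, with 25.4% of the values, fell (-1.03, adjusted p = 0.0375). Neither transcript of BMPR1B passed (-0.99 each), and SMAD7 and BAMBI, which each have 1 transcript, missed the threshold when adjusted over transcripts (adjusted p = 0.0556 and 0.0508). These divisions rest on the assignment of shared reads to transcripts of 1 gene.

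The second set of comparisons followed differentiation within each of the 4 origins, with 4 against 4 libraries. The count of called members was 10 in male controls, 4 higher and 6 lower, where 8.35% of all genes were called, 3.8% higher and 4.55% lower. It was 3 lower and none higher in female controls, where 2.52% of all genes were called, 1.44% lower. In male growth-restricted cells it was 9, with 1 higher and 8 lower, against 5.13% of all genes, 2.03% higher and 3.1% lower. In female growth-restricted cells it was 12, with 3 higher and 9 lower, against 10.3% of all genes, 4.33% higher and 5.99% lower. In all, 16 members were called in at least 1 origin. LTBP3 and SMAD1 were called in all 4, as were 1.73% of all genes in one direction.

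**Figure D4:**
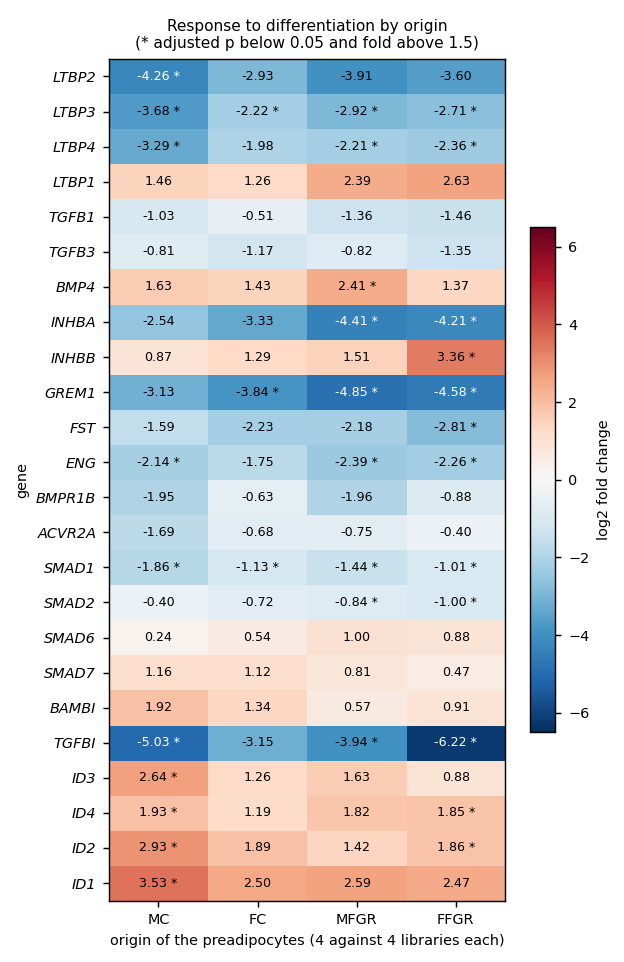
Log2 fold change with differentiation of the 24 called genes in each origin (columns, 4 against 4 libraries), with an asterisk where the gene was called in that origin. Colour gives the direction (red higher, blue lower), and the sign is the same across each row. LTBP3 and SMAD1 carry an asterisk in all 4 columns.

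LTBP3 in male controls stood at 1748, 1473, 2333 and 2402 in preadipocytes and at 341, 125, 146 and 82.8 after differentiation. In female controls LTBP3 stood at 2024, 1123, 2723 and 2189 before and at 420, 481, 436 and 320 after. In male growth-restricted cells it went from 1703, 2497, 1452 and 1988 to 280, 254, 186 and 283. In female growth-restricted cells it went from 1794, 890, 1368 and 3400 to 382, 296, 92.4 and 386. No value overlapped within any origin, and the log2 fold changes of LTBP3 were -3.68 (MC), -2.22 (FC), -2.92 (MFGR) and -2.71 (FFGR).

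SMAD1 stood at 1225, 1264, 1233 and 828 in MC and at 457, 328, 280 and 217 in MCD. In FC it stood at 758, 642, 1060 and 997, and in FCD at 399, 328, 430 and 395. In MFGR the SMAD1 values were 516, 1056, 1104 and 1006, and in MFGRD 245, 331, 400 and 342. In FFGR they were 522, 358, 572 and 929, and in FFGRD 337, 350, 143 and 352. The SMAD1 changes were -1.86, -1.13, -1.44 and -1.01 in the 4 origins. Preadipocytes lay above differentiated cells in every origin. The SMAD1 call in FC stood at the threshold (adjusted p = 0.0499). It was lost in 25 of the 32 fits that left out 1 library of any group, with 0.128 as the highest adjusted p, and with equal library totals (adjusted p = 0.346). The SMAD1 call in FFGR was lost without FFGR 1, 3 or 4 or FFGRD 1 or 3 (highest adjusted p = 0.12), and those in MC and MFGR were kept without any single library.

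GREM1 was called in FC, MFGR and FFGR, with changes of -3.84, -4.85 and -4.58. In FC it stood at 413, 24.4, 20.03 and 149 and in FCD at 6.40, 8.98, 0 and 9.64. The FC call of GREM1 was lost without any of FC 1, FC 4, FCD 1 and FCD 3 (highest adjusted p = 0.184). In MFGR the values were 142, 355, 42.4 and 343, and in MFGRD 5.88, 8.35, 8.02 and 0.879. In FFGR they were 124, 40.3, 138 and 164, and in FFGRD 11.4, 0.823, 0 and 15.0. Preadipocytes and differentiated cells did not overlap for GREM1 in these 3 origins, and in male controls they did, with 54.4 in MCD against 46.6 in MC.

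TGFBI was called in MC, MFGR and FFGR, ENG and LTBP4 in the same 3 origins, INHBA and SMAD2 in both growth-restricted origins, and ID2 and ID4 in MC and FFGR. LTBP2, ID1 and ID3 were called in MC, BMP4 in MFGR, and FST and INHBB in FFGR. BMP4 stood at 86.9, 49.6, 115 and 31.4 in MFGR and at 249, 585, 375 and 242 in MFGRD (2.41, adjusted p = 0.0274). The call for BMP4 was lost without any of MFGR 2, MFGR 4, MFGRD 2 and MFGRD 3 (highest adjusted p = 0.107). INHBB stood at 96.3, 2.81, 16.1 and 72.0 in FFGR and at 360, 437, 130 and 249 in FFGRD (3.36, adjusted p = 0.022). INHBB lost its call without FFGR 2, the library at 2.81 (2.44, adjusted p = 0.127), and without FFGR 3, FFGRD 1 or FFGRD 2. A call in 1 origin and not in another does not show that the origins differ. Of the 34 calls within single origins, 16 were kept without any single library, and these were the calls of LTBP3 in all 4 origins, of ENG in 3, of SMAD1 in MC and MFGR, of GREM1 in MFGR and FFGR, of TGFBI in MC and FFGR, of ID2 and LTBP4 in MC and of SMAD2 in FFGR.

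Within MC, FC and MFGR, residuals of libraries with the same replicate number correlated at 0.16 to 0.67. The lowest was MC 2, which matched best with another number. With this number as a block the counts were 13, 7 and 13. The block was chosen from these same data, so its smaller p-values are no separate support for the calls it added. The block added GREM1, BMPR1B and ACVR2A in MC (adjusted p = 0.0368, 0.017 and 0.00794). It added INHBA, ID1, LTBP4 and ENG in FC (adjusted p = 0.0386, 0.0271, 0.00596 and 0.0257). In MFGR it added LTBP1, ID1, LTBP2 and BMPR1B (adjusted p = 0.0127, 0.0144, 0.032 and 0.0224). The shares of all genes called under the block were 14.3%, 5.59% and 9.01%. For the mean over the 4 origins, where the block also paired the FFGR libraries, it gave 25 members and 31.6% of all genes. SMAD6 was lost (adjusted p = 0.0712), and BMP6 and BMP7 were gained (adjusted p = 0.0499 and 0.0493).

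The third set of comparisons asked whether growth restriction, sex or their combination with differentiation changed these genes. None of the 42 genes was called by limma in any of the 11 comparisons, and 0.0% of all genes were called in each. The 6 comparisons of growth restriction compared growth-restricted with control cells in preadipocytes, in differentiated cells, and in each sex of both. At an unadjusted p below 0.05 stood 2 members in preadipocytes of both sexes, 1 in female preadipocytes and 1 in female differentiated cells, and 0 in the other 3. Among all genes 344, 136, 175, 169, 342 and 192 stood below it, in the order of preadipocytes, differentiated cells, male preadipocytes, female preadipocytes, male differentiated and female differentiated cells.

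SMAD2 in preadipocytes was 0.40 higher with growth restriction (95% interval 0.10 to 0.70, p unadjusted from limma 0.011, adjusted p = 0.84), and SMAD1 was -0.47 (-0.92 to -0.01, adjusted p = 0.84). SMAD2 stood at 978, 943, 794 and 829 in FC and at 1190, 1417, 1595 and 994 in FFGR, and in FFGR all 4 libraries lay above FC. In males SMAD2 stood at 710, 853, 742 and 1063 in MC and at 1013, 1039, 938 and 1019 in MFGR. TGFBI in female differentiated cells gave the largest difference, -3.31 (-5.45 to -1.16, adjusted p = 1.00). Its values were 2548, 3174, 817 and 5195 in FCD and 65.6, 257, 229 and 910 in FFGRD, where the highest FFGRD library overlapped the lowest FCD library. The intervals were wide for most genes, as for GREM1 in preadipocytes (-0.97 to 2.001) and INHBA (-1.50 to 1.88), and narrower for LTBP3 (-0.75 to 0.48).

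Male against female cells gave 1 member at an unadjusted p below 0.05 in each stage, with 550 and 159 genes in all. SMAD1 was 0.53 higher in male preadipocytes (95% interval 0.07 to 0.98, adjusted p = 0.846), and LTBP3 in male differentiated cells was at -0.73 against female ones (-1.35 to -0.11, adjusted p = 1.00). In the differences between responses to differentiation, no member had an unadjusted p below 0.05, against 132 genes for growth-restricted against control, 116 for males against females and 74 for MFGR against the other 3 origins. The response of growth-restricted minus that of control cells was 0.14 (95% interval -0.73 to 1.02) for LTBP3, 0.27 (-0.38 to 0.91) for SMAD1 and -0.48 (-2.39 to 1.42) for ID1. It was 1.36 for INHBB (-0.59 to 3.31) and -1.37 for INHBA (-3.77 to 1.02). The response of LTBP3 in males minus that in females was -0.83 (-1.71 to 0.04, adjusted p = 0.912). BMP4, called in MFGR alone, responded 0.93 more there than in the other 3 origins, with an interval of -0.61 to 2.48 (adjusted p = 1.00). Differences anywhere within these intervals are compatible with the values at this spread between libraries. The intervals are not adjusted for the number of genes tested.

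The wider pathway was described with 7 further lists of genes, by their change with differentiation averaged over the origins, against 12.4% of all genes called higher and 14.8% lower. Of 24 other ligands only 6 could be tested, 2 were lower and 1 higher (median -0.57). GDF15, a stress-induced ligand, fell by 2.66 (preadipocyte median 13.97, differentiated 0.812). INHA, the inhibin alpha subunit, fell by 1.21 (preadipocyte median 9.33, differentiated 3.54). The differentiated medians of both are near or below the value of 3 reads, so the sizes of these changes are uncertain. MSTN, myostatin, was at or below 1.70 in every preadipocyte library and had a median of 3.98 and a highest value of 25.1 in differentiated cells. With the preadipocytes taken at the approximate value of 3 reads, the MSTN difference was 0.29 on the log2 scale.

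Of 8 other receptors and co-receptors, 4 were tested, with 1 lower, 1 higher and a median of 0.20. ACVRL1, the type I receptor ALK1, had a median of 58.2 in preadipocytes and 4.28 in differentiated cells, and no differentiated library reached the lowest preadipocyte value of 20.6 (-3.44 ± 0.37). ALK1 is, like endoglin, best known from endothelial cells, whose markers were low in both stages with KDR falling, and their part in its change was not tested. ACVR1C, the type I receptor ALK7 of white adipocytes, had a median of 1.64 in preadipocytes and 20.9 in differentiated cells (3.00 ± 0.52). Its preadipocyte values, with a highest of 5.49, were near that of 3 reads, so the size of this change is uncertain.

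Of 16 other extracellular antagonists, 9 were tested, 4 were called higher and 2 lower (median 0.47, or 0.43 with genes at or below 3 reads taken at 3 reads). BMPER, a BMP-binding modulator, rose by 3.27 from a median of 30.6 to 293. SOST, sclerostin, was listed at 0 in all 16 preadipocyte libraries and had a median of 10.1 and a highest value of 70.1 in differentiated cells. The increase of SOST was 1.31 on the log2 scale with the preadipocytes at the approximate value of 3 reads. FSTL5, one of the 4, was at or below 1.22 in every preadipocyte library and had a median of 1.17 and a highest value of 49.6 in differentiated cells. With the preadipocytes at 3 reads its difference was -0.24, so no increase is shown for FSTL5. BGN and DCN, small proteoglycans that bind TGF-beta, fell by 1.62 and 1.28, and DCN also stands on the fibroblast list, where PDGFRB fell (-0.82), THY1 rose (1.65) and PDGFRA and CD34 did not pass.

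Among 12 genes of latent TGF-beta storage and activation, 9 were tested, with 1 higher and 1 lower (median -0.17). FURIN, the protease that cleaves TGF-beta precursors, had a median of 349 in preadipocytes and 1048 in differentiated cells (1.64 ± 0.20), and EMILIN1, which restrains TGF-beta processing, went from 4031 to 1936 (-1.28 ± 0.33). Among 22 intracellular regulators, 20 were tested and 2 were lower (median 0.02). LDLRAD4, an inhibitor of SMAD2 and SMAD3 activation, fell by 1.06, and the ubiquitin ligase SMURF2 fell by 0.84.

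Of 16 known TGF-beta response genes, 15 were tested, 5 fell and 1 rose (median -0.78). CNN1, calponin of the contractile apparatus, fell by 2.73 from a median of 2254 to 440. CCN2, connective tissue growth factor, fell by 2.31 from 4706 to 824, and TGFB1I1, the focal adhesion protein Hic-5, fell by 1.85. SNAI2, the transcription factor Slug, rose by 0.92. ACTA2 is among the 5 and also on the smooth muscle and pericyte list, of which 3 of the 4 genes tested fell, DES (-3.43), ACTA2 (-1.81) and CSPG4 (-1.81). The summed values of that list ran from 4938 to 50566 in preadipocytes and from 587 to 14075 in differentiated cells, and their part in the change of the TGF-beta response genes was not tested. Of 8 known BMP response genes, 6 were tested and 3 were called higher (median 1.15, or 1.08 with genes at 3 reads). ATOH8, a helix-loop-helix factor, rose by 3.83, with 24.7 as the preadipocyte and 198 as the differentiated median, and the 2 stages did not overlap. HEY1 was at 2.41 or less in every preadipocyte library and had a median of 17.5 in differentiated cells. Its increase was 1.71 with preadipocytes at the approximate value of 3 reads. HEYL, the last of the 3, was near the value of 3 reads, with a median of 0 and a highest value of 4.60 in preadipocytes and a median of 2.16 and a highest value of 32.5 in differentiated cells, so no size is given for its difference. HEY1 and HEYL are best known as targets of Notch.

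**Figure D5:**
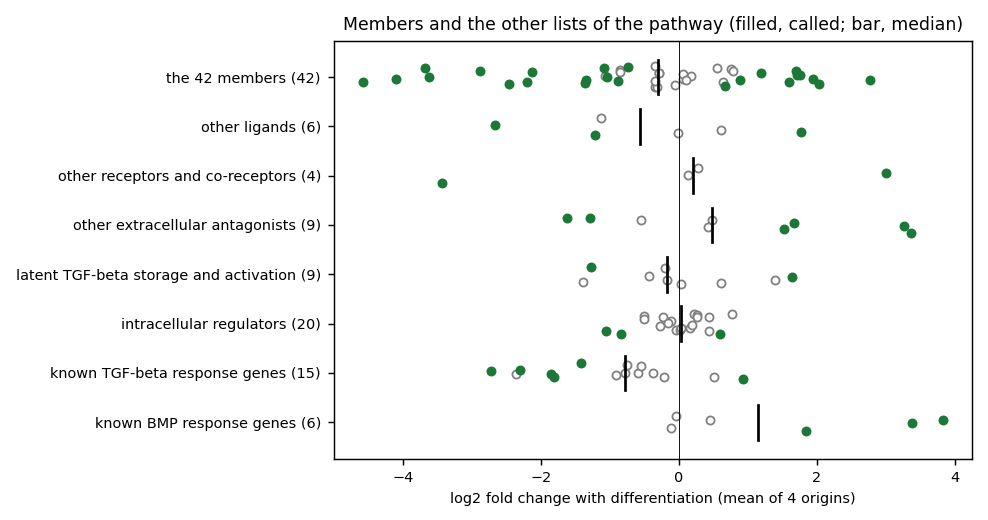
Log2 fold change with differentiation (mean of 4 origins) of each gene tested in the 42 members and in the 7 further lists, whose number of genes tested stands in parentheses. Filled points are called genes, open points are not, and vertical bars are medians. The TGF-beta response genes lie mostly left of 0, and the 3 called BMP response genes lie to the right.

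Last, the members were set against ADIPOQ, the adipokine adiponectin, over the 16 differentiated libraries, in which it ran from 8.59 to 13421. No member passed an adjusted p below 0.05 over the 42 genes by Pearson's r or by Spearman's rho. By Pearson's r 16 stood at an unadjusted p below 0.05 (two-sided permutation test). The share of all genes below it is not given here, so this count is not a result about these members in particular. The lowest p was that of BMPR1B (r = -0.68, permutation p = 0.004, adjusted p = 0.105, rho = -0.70 with permutation p = 0.004), and r was -0.70 without the 2 libraries farthest from the ADIPOQ median. Next came TGFBI (r = -0.63, permutation adjusted p = 0.105) and FSTL1 (r = -0.62, permutation adjusted p = 0.105). Within the 11 differentiated libraries of high span slope r was -0.58 for BMPR1B, -0.63 for TGFBI and -0.68 for FSTL1. ADIPOQ itself varied with the span slope (r = -0.41), and so did BMPR1B (0.67) and FSTL1 (0.81). Over the 42 members r with the span slope ran from -0.87 (ID3) to 0.97 (BMPR2). The part of the span slope in these relations was not tested.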

How the data were processed

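RNA was prepared with the Swift RNA library kit and sequenced on a NextSeq500. Reads whose mean Phred score was under 34 were removed by the authors (FastQC 0.11.9 per the labels). Salmon assigned the rest to Ensembl transcripts of Oar_rambouillet_v1.0, and the authors scaled the 32 libraries together with DESeq2. The deposited signal of each transcript is the result, in normalized reads that are not whole numbers and appear to carry a further scaling that differs between transcripts. The deposited columns also hold the group means of this signal, and the fold change scores, p-values and adjusted p-values of the authors' own comparisons, which were not used.

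Transcripts were summed per gene, with groups taken from the labels. A gene was tested at 10 or more in at least 4 libraries. limma 3.58.1 (R 4.3.3) was fitted with an empirical Bayes trend to log2(value + 1), with the 8 group means as terms over all 32 libraries, for 16 comparisons. Fold changes are on this log2(value + 1) scale, which understates the change of low genes. A design for read counts had been foreseen only if the table held counts, which it did not. Calls needed an adjusted p below 0.05 (Benjamini-Hochberg over 12737 genes) and a fold above 1.5. Libraries were called low in span slope below 0.1. Values below that of 3 reads count as not distinguishable from 0, and depth intervals were not computed because the values are not counts. In simulated data the mean comparison called 88.3% of 4-fold and 51.3% of 2-fold changes, and differentiation in MC 46.7% and 11%. There only a small part of the genes was changed, with normal noise independent between genes. In the data many more genes were called and genes deviate together, as with the span slope. These shares are therefore not the detection rates of the real comparisons.

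The members and the gene lists were chosen with earlier results of these data known. Values are given for every called member, and for at most 3 called genes per direction of each further list, those with the largest change. The result of 1 gene of these lists is not reported here. The correlations used 100000 permutations, 1e-05 being the smallest p they can give. Residuals of libraries with the same replicate number correlated at 0.16 to 0.67 in MC, FC and MFGR, all above 0.1, and at -0.40 to 0.56 in FFGR, so the numbers were taken to pair libraries in the first 3 origins. This pairing comes from the data and not from the labels. Alternatives were a pseudocount of 0.1, quantile normalization, equal library totals, no filter, a filter of 50, only the groups compared, the span slope as a covariate, array weights, the replicate block, the highest transcript and each library left out in turn. Fits without the 9 libraries of low span slope, and on those alone, were chosen after seeing the data. No sequences were analysed here.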

Additional observations from a re-analysis of the deposited data

Results flagged for a closer look

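Of 192 groups of 4 libraries (24 called members in 8 groups), 18 held a library whose gap to the nearest other was above the 95% critical value of Dixon's test for 4 values, on the log2 scale. Chance flags about 1 group in 20. Of the differentiated libraries of low span slope, MCD 2 stood apart for FST (496, others 38.2 to 48.8), TGFB1 (250, others 54.5 to 66.7) and SMAD2 (397, others 702 to 772), and MCD 4 for INHBB (80.0, others 172 to 198). FFGRD 3 stood apart for ID1 (8692, others 1311 to 1508), ID3 (4732, others 683 to 702), SMAD1 (143, others 337 to 352) and ACVR2A (92.6, others 468 to 553), and FCD 2 for ACVR2A (255, others 561 to 595). Of the preadipocyte libraries of low span slope, MFGR 1 stood apart for SMAD1 (516, others 1006 to 1104) and ACVR2A (249, others 897 to 1037). The part of the span slope in these values was not tested.

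The other libraries that stood apart have a high span slope. INHBA in FFGRD was 222 in replicate 4 and 23.05 to 24.99 in the others. TGFB3 in MFGRD was 684 in replicate 2 and 273 to 304 in the others. GREM1 in FCD was 0 in replicate 3 and 6.40 to 9.64 in the others. In FC replicate 1 both TGFBI (105211, others 11040 to 14891) and BMP4 (204, others 69.4 to 79.2) were the highest of the group. In MC replicate 4, LTBP1 (490, others 908 to 1013) and SMAD1 (828, others 1225 to 1264) were the lowest of the group.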

How the results depend on the processing

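None of the calls given in the text reversed under the alternatives run for them. For the mean over the 4 origins, 21 to 24 members were called without any 1 library and 15 in the 9 libraries of low span slope alone, against 24. In MC the count of 10 became 17 with array weights, and 7 to 12 without any 1 library. In FC the count of 3 became 1 with a pseudocount of 0.1, with equal library totals, with no filter, with only the groups compared or with the highest transcript. It became 12 with the span slope as a covariate, 18 with array weights, 7 with the replicate block, 9 without the 9 libraries of low span slope, and 1 to 5 without any 1 library (1 without FC 1, FC 4, FCD 1 or FCD 3, and 5 without MCD 2). In MFGR the count of 9 became 20 with the covariate, 18 with array weights and 6 to 11 without any 1 library. In FFGR the count of 12 became 5 with only the groups compared, 19 with the covariate and 6 to 14 without any 1 library (6 without FFGRD 1 and 7 without FFGRD 2). The causes were not tested. The share of all genes called moves with the setting as well. For the mean over the 4 origins it was 27.2%, and became 33.0% with the covariate and 31.2% with array weights. For single origins under these alternatives it is given here only for the replicate block, so the other counts are not results about these members in particular. The comparisons of growth restriction, sex and response gave no called member under any of these alternatives, the replicate block included. For ADIPOQ the count of 0 became 1 without FCD 2 or FCD 4. In FFGR the block gave 15 members, with 17.2% of all genes called, and 13 of 16 libraries over all origins matched best with their own number. Equal library totals moved the median change of all genes from 0.03 to 0.16. The depth limits genes near a value of 3 reads, such as HEY1 or MSTN in preadipocytes.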
